A study of Homo sapiens with 30 samples.

Results

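Aminoacyl-tRNA synthetases are the enzymes that charge each transfer RNA with its amino acid, and the sites described here are the positions with A-to-G change that lie in exons of 36 synthetase genes. Members were taken by position: every site of the deposited table of editing shares that falls in an exon of 1 of these genes in GENCODE release 29, on the genome build GRCh38. This gave 2880 sites of 382978 in the table, spread over all 36 genes. The choice used no measured value of these sites, and how the authors selected the sites of the table is not known from the sources used here. Nearly all of them, 382863 of 382978, were called in at least 1 deaminase library by the rule given below.

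The study transfected HEK 293T cells, an established human embryonic kidney line, with RNA-guided adenosine deaminases and read poly(A) RNA 60 h later, with 300 ng of RNA per library. ADAR1 and ADAR2 convert adenosine to inosine, which sequencing reads as G. In 16 libraries MCP, a phage coat protein that binds MS2 hairpins in a guide (MS2 adRNA), was joined to the catalytic part of the enzyme, the deaminase domain or DD, of either ADAR1 or ADAR2. A fusion had a signal for export from the nucleus (NES) or for import into it (NLS), was wild type or held a glutamate-to-glutamine change known to raise activity (E1008Q in ADAR1, E488Q in ADAR2, together called E-to-Q), and was given with or without the guide. Full-length ADAR2 was used in 4 more libraries, as wild type or with E488Q, each with or without a GluR2 adRNA, and 2 held the ADAR2 domain with E488Q on Cas13b, a bacterial protein that binds RNA through a guide RNA (gRNA), with or without that gRNA. Controls were GFP, MS2 adRNA, GluR2 adRNA and gRNA, each transfected alone, and untransfected cells. Every condition was 1 library, and the 4 untransfected samples were runs of a single library, so no value below has a biological replicate error. The spread quoted is between constructs.

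A share is the percentage of reads with G at a site, and a rise is the share minus the mean share of untransfected runs 2, 3 and 4. A site counts as called in a library if it had a positive rise and an adjusted p-value under 0.01 in the authors' deposited table. Read counts per site were not used here, and the number of reads behind a share is not known. Fewer reads also leave fewer sites able to pass the test, and the amount of each deaminase was not measured. Among the 4 transfected controls no synthetase site was called. The percentage called over all listed sites was 0.00157% with GFP, 0.00366% with MS2 adRNA, 0.0047% with GluR2 adRNA and 0.00601% with gRNA.

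Synthetases work in both protein-making compartments of the cell. Those of the cytosol and those imported into mitochondria are mostly encoded by separate genes, written here without and with the ending 2, and some cytosolic enzymes are bound together in a multisynthetase complex. Class I enzymes hold a nucleotide-binding fold with the signature motifs HIGH and KMSKS, which bind ATP and the aminoacyl adenylate, and class II enzymes are built on a different fold. GARS and KARS each serve both compartments.

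The sequences below are those of the sites on which the results turn, taken from the spliced GENCODE transcripts in the direction of the message, 5′ to 3′, with 14 bases on either side. The capital A is the adenosine read as G. Amino acid changes are those that a G at that position would give, counted from the first codon of the transcript used. The first set holds the 10 sites with the largest mean rise over the 22 deaminase libraries.
SARS T91A, seryl-tRNA synthetase, chr1:109228415, plus strand, exon 3 of 11: gtttcgatgaccttActgcagacgcttta
VARS P10P, valyl-tRNA synthetase, chr6:31795188, minus strand, exon 2 of 30: gtctcccctcacccAgatgccttccccag
YARS K119K, tyrosyl-tRNA synthetase, chr1:32810614, minus strand, exon 3 of 13: ctcaagttcatcaaAggcactgattacca
TARS T657A, threonyl-tRNA synthetase, chr5:33466931, plus strand, exon 18 of 19: tggatccaggctgtAcattgaataaaaag
EARS2 K287R, mitochondrial glutamyl-tRNA synthetase, chr16:23534986, minus strand, exon 4 of 9: cagcaagctctccaAgaggcaaggggacg
LARS I506V, leucyl-tRNA synthetase, chr5:146144697, minus strand, exon 16 of 32: ctggagatgcacttAtttacatggaacca
CARS2 T482A, mitochondrial cysteinyl-tRNA synthetase, chr13:110642494, minus strand, exon 14 of 15: acggcagcgaggctAccttgcatggtgtg
AARS T136A, alanyl-tRNA synthetase, chr16:70276559, minus strand, exon 4 of 21: aaagactttatgttActtactttggcggg
PARS2 3′ UTR, mitochondrial prolyl-tRNA synthetase, chr1:54757236, minus strand, exon 2 of 2: agagtatggggaaaAgaatcaagagacct
IARS K494R, isoleucyl-tRNA synthetase, chr9:92265504, minus strand, exon 15 of 34: actgtcaggagcaaAgatctcagatctcc

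The second set holds sites that set constructs apart, or that change a stop or start codon.
AARS2 K38R, mitochondrial alanyl-tRNA synthetase, chr6:44313211, minus strand, exon 1 of 22, high with full-length ADAR2: gccccctgcagccaAggcctcggccgtga
AARS2 K38E, chr6:44313212, the adjacent adenosine of the same codon: agccccctgcagccAaggcctcggccgtg
WARS 5′ UTR, tryptophanyl-tRNA synthetase, chr14:100369192, minus strand, exon 2 of 11, high with the E-to-Q fusions and low with full-length ADAR2: agttcctgagagatAgcaaacatgcccaa
WARS K431R, chr14:100334999, exon 11 of 11, higher with the ADAR2 than with the ADAR1 domain: caccggtgagctcaAgaaggcactcatag
CARS K725R, cysteinyl-tRNA synthetase, chr11:3001187, minus strand, exon 22 of 22, lower with E-to-Q: agccaagaagctgaAgaagctcttcgagg
YARS stop codon 529, chr1:32775982, minus strand, exon 13 of 13: ggggaacattagctAgccagcccagcatc
KARS M1V, lysyl-tRNA synthetase, chr16:75647639, minus strand, exon 1 of 14, the start codon: ggccctccgggaagAtggcggccgtgcag

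Synthetase sites lay mostly in coding sequence. Of 2875 sites that are adenosine on the strand of the member's transcript, 2511 (87.3%) were coding, against 65.4% of all listed exonic sites assigned to 1 gene. A 3′ UTR held 294 of them (10.2%, against 29.1% overall) and a 5′ UTR 54 (1.88%, against 4.03%). A G at the site would change the amino acid at 1791 (62.3%, against 47.9%). Lysine to arginine was the most frequent exchange, with 389 of those 1791 sites (21.7%, against 20.4% overall). It was followed by glutamine to arginine with 217 and tyrosine to cysteine with 166.

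The bases beside the edited adenosine were close in frequency to those of the table as a whole. G followed the adenosine at 55.1% of synthetase sites and at 58.7% of all sites, while 29.9% of all 28086 adenosines in the 36 member transcripts have G after them. G stood before it at 11.3% and 12.1%, against 28.8% of the transcripts' adenosines. Both deaminase domains are known to disfavour a G on the 5′ side and to favour one on the 3′ side. The other 5 sites read T on the strand of the member they were assigned to, and 49 of the 2880 lie in exons of more than 1 gene. Of these 5, 1 lies in exons of 2 members on opposite strands. It was assigned to HARS, in its 5′ UTR, and reads A on the HARS2 strand. No source states a kit that keeps strand, so sites in exons of several genes were counted by position, and their reads were not assigned to 1 of the genes.

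The genes differed widely in how many of their adenosines were listed. Per 1000 adenosines of the transcript, YARS had 322 listed sites, SARS 293 and MARS, methionyl-tRNA synthetase, 279. At the other end stood the mitochondrial enzymes EARS2 with 6.30, WARS2 with 7.26 and MARS2 with 10.2. IARS held the most sites, 276, and SARS2, mitochondrial seryl-tRNA synthetase, the fewest, 5.

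The 20 cytosolic genes (GARS and KARS among them) had a median of 155 sites per 1000 adenosines, from 51.9 in FARSB, a subunit of phenylalanyl-tRNA synthetase, to 322 in YARS. The 16 mitochondrial genes had a median of 28.7, from 6.30 to 87.4 in VARS2. Levels ran the other way. The median over sites of the highest share in any deaminase library was 6.36% in cytosolic genes and 17.1% in mitochondrial genes, and 29.9% against 79.3% of sites reached 10%. Across the 36 genes Spearman's rho between site density and the median highest share was -0.85, and Pearson's r was -0.67. Both measures of a gene come from the same libraries and the same test. The number of reads on each message, which bears on both, is unknown, and its part was not tested.

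**Figure D1:**
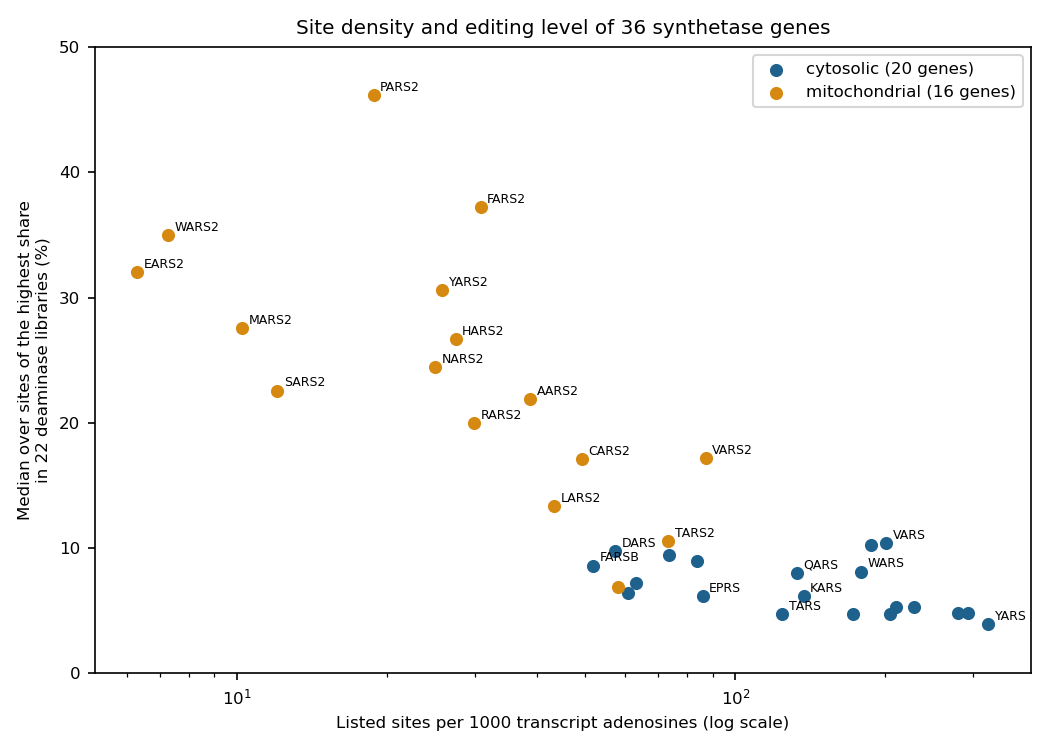
Each point is 1 gene: listed sites per 1000 adenosines of its transcript (x axis, log scale) against the median over its sites of the highest share in any of the 22 deaminase libraries (y axis, percent), with 24 genes labelled. Most mitochondrial genes lie to the upper left, with PARS2 highest at 46.2%, and cytosolic genes lie lower, with YARS lowest at 3.91%. The 2 sets overlap: IARS2 is at 6.88% and 58.2 sites per 1000 adenosines, beyond FARSB at 8.61% and 51.9.

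The 8 genes of the multisynthetase complex (DARS, EPRS, IARS, KARS, LARS, MARS, QARS and RARS) held 947 sites, with a median of 109 per 1000 adenosines and a median highest share of 5.83%. By class, the 19 class I genes held 1759 sites with a median highest share of 7.32%, and the 17 class II genes held 1121 sites with 6.89%.

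Levels at synthetase sites were lower than in the table as a whole. Over the 2880 sites the median highest share was 7.14% against 14.1% over all sites, and 6.79% against 12.4% over coding sites alone. The median rise over the 22 libraries was 1.36 percentage points against 2.6. Of the 2880 sites, 2879 were called in at least 1 deaminase library, 967 in exactly 1, and 175 (6.08%, against 6.63% of all sites) in 11 or more. A highest share of 50% or more was reached by 34 sites (1.18%, against 4.52%). The percentage of sites called, in contrast, was above that of all sites in 9 of 22 libraries. The number of reads per site, which bears on shares and calls, is unknown, and its part was not tested.

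Calls per library ranged from 8 to 1722 of the 2880 sites. MCP-ADAR1 DD (E1008Q)-NES called the most: 59.8% without guide and 53.4% with it, against 59.2% and 51.1% of all sites. The wild-type ADAR1 fusion with NES called 36% without guide (30.3% of all sites) and 32.1% with it (26.4%). With NLS, E1008Q called 23.1% without guide (23.5% of all) and 31.0% with it (28.9%), and the wild type 5.62% (5.35%) and 10.3% (7.45%).

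ADAR2 fusions called far fewer. With NES the wild type called 1.81% of synthetase sites without guide (2.48% of all sites) and 4.86% with it (5.29%). E488Q with NES called 7.64% (9.21%) and 10.2% (11.2%). With NLS the wild type called 0.729% (0.982%) and 1.08% (1.24%), and E488Q 5.38% (7.32%) and 8.26% (9.94%). The called share was above that of all sites in 7 of 8 ADAR1 fusions and in 0 of 8 ADAR2 fusions. Over coding sites alone, a comparison added after the values were seen, the E1008Q libraries called 60.0%, 53.1%, 23.8% and 31.6% of synthetase sites (NES without and with guide, then NLS) against 62.2%, 53.8%, 25.8% and 31.7% of all coding sites.

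Full-length ADAR2 and the Cas13b fusion stood on opposite sides of the background. Wild-type full-length ADAR2 called 8 synthetase sites without guide (0.278%, against 1.5% of all sites) and 52 with it (1.81%, against 4.85%). E488Q called 80 without guide (2.78%, against 6.72%) and 702 with it (24.4%, against 32.7%). The Cas13b fusion called 1149 without gRNA (39.9%, against 29.5%) and 556 with it (19.3%, against 12.9%). Over coding sites alone the order held. The 4 full-length libraries called 0.319%, 1.99%, 2.91% and 23.7% of synthetase sites against 0.834%, 3.72%, 4.87% and 27.9% of all coding sites, and Cas13b 40.7% and 19.7% against 31.2% and 13.8%. With 1 library per condition, none of these differences has a replicate check.

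**Figure D2:**
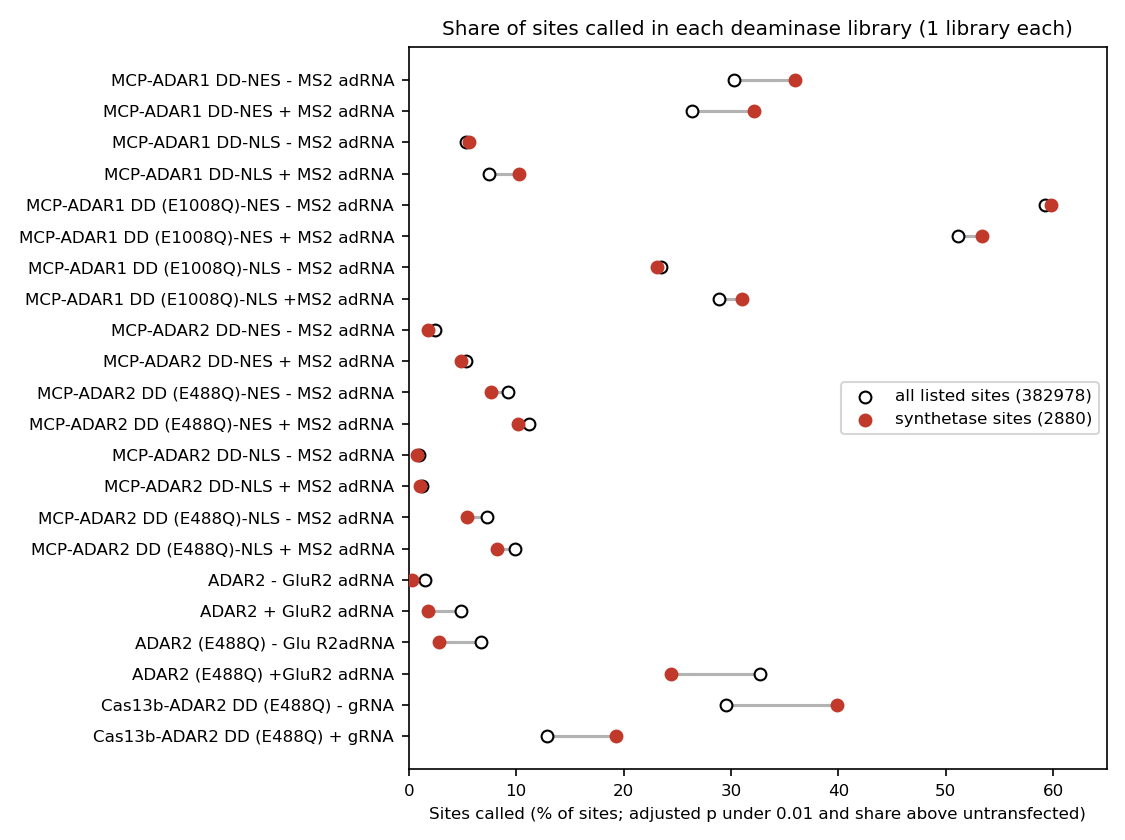
Percentage of sites called in each of the 22 deaminase libraries, for the 2880 synthetase sites (filled red points) and all 382978 listed sites (open points), joined by a line. Synthetase sites lie right of the background in the wild-type MCP-ADAR1 and Cas13b libraries and left of it in the MCP-ADAR2 and full-length ADAR2 libraries.

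Cytosolic and mitochondrial genes were not called alike. The called share was higher for the 2490 cytosolic sites than for the 391 mitochondrial ones (1 site lies in a gene of each) in 19 of 22 libraries, for example 62.5% against 42.2% for exported ADAR1 E1008Q lacking the guide. The other 3 were full-length ADAR2 libraries: 1.69% against 2.56% for the wild type with guide, 2.73% against 3.07% for E488Q without guide and 23.3% against 31.5% for E488Q with guide.

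Single sites reached high shares in genes of both compartments. SARS T91A, in the enzyme that charges serine tRNA, had the largest mean rise, 30.2 ± 16.8 percentage points (SD over 22 libraries), and was the only synthetase site called in all 22, against 498 sites of the whole table (0.130%). Its share ran from 3.76% with wild-type full-length ADAR2 without guide, through a median of 33.1%, to 61.9% with MCP-ADAR1 DD (E1008Q)-NES with guide. It was 0% in untransfected runs 2 and 4, 0.139% in run 3 and 0% in the 4 control transfections, so no deaminase library overlapped a control.

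VARS P10P, a synonymous site, rose by 26.3 ± 18.4 points. Its highest values, 50.7% to 68.4%, were all in full-length ADAR2 libraries, while the 16 MCP libraries lay between 6.20% and 31.4%. YARS K119K rose by 25.5 ± 20.9 points and showed the reverse: 29.1% to 62.5% in the 8 ADAR1 fusions and 0.983% to 20.9% in the full-length ADAR2 libraries.

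TARS T657A had a mean rise of 25.0 ± 19.1 points and a highest share of 64.3%. EARS2 K287R had 24.8 ± 11.5 points and the smallest SD of the 10, with 4.44% as its lowest share, 25.8% as its median and 44.2% as its highest. It was called in only 9 libraries. LARS I506V (23.6 points, called in 21 libraries), CARS2 T482A (23.4, in 14), AARS T136A (21.8, in 18), the PARS2 3′ UTR site (20.8, in 6) and IARS K494R (20.2, in 18) completed the list. The 3 sites of mitochondrial genes were called in 6 to 14 libraries and the 7 of cytosolic genes in 18 to 22.

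**Figure D3:**
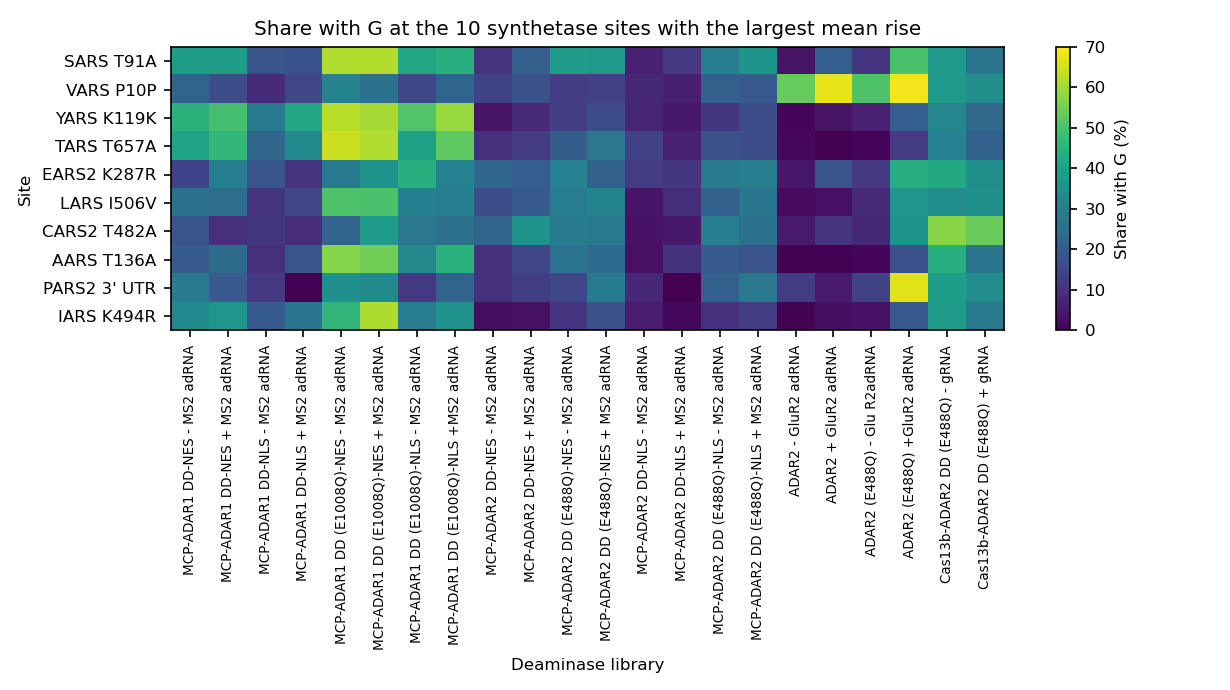
Share of reads with G (colour, percent) at the 10 synthetase sites with the largest mean rise (rows) in each of the 22 deaminase libraries (columns), 1 library per column. The VARS P10P row is brightest in the 4 full-length ADAR2 columns, the PARS2 row in the full-length E488Q column with guide, the CARS2 row in the Cas13b column without gRNA, and the other rows in MCP-ADAR1 DD (E1008Q) columns.

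More synthetase sites were called with the E-to-Q change than without it in every matched pair of constructs. The count was higher in 10 of 10 pairs, by 1.66 to 13.5 times (median 4.17 times, against 4.14 over all sites). Limma was fitted to each site over the 16 MCP libraries with 4 main effects (enzyme domain, E-to-Q, signal and guide), with a threshold of 0.05 on p-values adjusted over all 382978 sites. For E-to-Q 907 synthetase sites were higher (31.5%, against 39.7% of all sites) and 36 lower (1.25%, against 0.72%). The median paired difference was 0.72 percentage points over the members and 1.57 over all sites.

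The site with the largest E-to-Q difference lies in the last exons of MARS and of DDIT3, a stress-induced transcription factor gene on the opposite strand. It reads T on the MARS strand, so the adenosine lies on the DDIT3 strand, and the site is counted here by position only. Its share was 15.1% to 57.8% in the 8 E-to-Q libraries and 0% to 16.1% in the 8 wild-type ones.

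Among sites on the members' own strand, the WARS 5′ UTR site lay at 14.1% to 41.2% with E-to-Q (median 34.0%) and 0.662% to 21.7% with the wild type (median 3.49%). Its mean paired difference was 24.0 ± 10.7 points (SD over 8 pairs; limma adjusted p = 5.82e-05). SARS T91A lay at 29.9% to 61.9% with E-to-Q and 6.44% to 39.0% with the wild type, a difference of 23.5 ± 3.24 points (limma adjusted p = 3.41e-05). Its groups overlapped over all libraries, but every matched pair moved the same way with little spread.

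A WARS 3′ UTR site at chr14:100334244 separated the groups fully, with 20.7% to 46.8% against 1.84% to 12.3% (difference 23.3 ± 6.70 points, limma adjusted p = 1.16e-05). CARS T201A, which also lies under an antisense transcript, CARS-AS1, was at 15.2% to 42.7% against 2.50% to 16.7% (difference 22.3 ± 8.07 points, limma adjusted p = 1.66e-05).

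Few sites went down with E-to-Q. Of the 36, 5 fell in 8 of 8 pairs: CARS K725R, CARS K700R, a FARSA 3′ UTR site, the synonymous DARS L78L and the synonymous IARS2 P612P. CARS K725R was at 1.45% to 12.6% in the wild-type libraries and 0% to 4.35% in the E-to-Q ones, a fall of 4.77 ± 3.77 points (limma adjusted p = 0.00263). The falls at the other 4 were 2.13 to 3.28 points. For all 5 the highest share of any deaminase library was in the wild-type MCP-ADAR1 DD-NES without guide. Of the 36 sites 69.4% had G after the adenosine, against 45.0% of the 904 higher sites on the members' strand. The figure was 55.1% over all synthetase sites. It was 63.1% for sites lower with NLS, 58.9% for those higher and 56.7% for those lower with ADAR2. The same percentage over all listed sites lower with E-to-Q was not computed.

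Replacing the export signal by a nuclear one went with fewer called synthetase sites in 8 of 8 pairs, by 1.23 to 6.40 times, with a median of 2.53 times against 2.52 over all sites. In the limma fit 84 sites were lower with NLS (2.92%, against 3.76% of all sites) and 0 higher (against 0.0397% of all sites). At an unadjusted p under 0.05, 10 of the 2880 synthetase sites were higher, against 1404 of all 382978 sites. LARS I506V fell from 16.7% to 50.6% with NES (median 27.9%) to 4.31% to 30.6% with NLS (median 18.2%), by 12.8 ± 5.40 points over 8 pairs (limma adjusted p = 0.0188). SARS T91A fell by 12.9 ± 7.90 points (limma adjusted p = 0.0282), CARS T201A by 11.8 ± 8.61 (0.0249), GARS K632R by 11.3 ± 8.04 (0.0250) and a TARS2 3′ UTR site by 13.1 ± 13.6 (0.0449).

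The calls for the nuclear signal depended on single libraries. Leaving out any 1 of the 8 ADAR1 libraries gave 3 to 23 sites in place of 84. The call was lost for the TARS2 site without any of 12 libraries, for SARS T91A without any of 8, for GARS K632R without any of 5 and for CARS T201A without any of 3, and LARS I506V kept it throughout with a highest limma adjusted p of 0.0431. NLS and NES values of a site overlapped for each of these 5.

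The ADAR2 domain edited synthetase messages less than the ADAR1 domain. Called sites were fewer in 8 of 8 pairs, by 3.76 to 19.9 times (median 7.16 times, against 5.22 over all sites), and 1990 sites were lower in the limma fit (69.1%, against 66% of all sites) while 56 were higher (1.94%, against 2.6%). YARS K119K showed the widest gap, with 29.1% to 62.5% in the ADAR1 fusions and 3.59% to 16.7% in the ADAR2 fusions, a fall of 39.7 ± 8.03 points (limma adjusted p = 3.14e-07). The next were TARS K5R, near the start of threonyl-tRNA synthetase (fall of 33.7 ± 11.7), CARS R392G (a median of 44.5% against 9.76%), TARS T657A (29.6 ± 10.3) and IARS K796R (29.5 ± 11.1). The ADAR1 and ADAR2 values did not overlap in TARS K5R (19.4% to 64.2% against 0.535% to 15.6%), CARS R392G (30.3% to 52.4% against 1.05% to 17.4%) or IARS K796R (17.1% to 55.9% against 0.348% to 8.40%).

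A small set of sites favoured the ADAR2 domain. WARS K431R, in tryptophanyl-tRNA synthetase, was at 6.25% to 26.5% in the ADAR2 fusions and 0.382% to 4.01% in the ADAR1 fusions, 11.1 ± 5.84 points higher (limma adjusted p = 1.11e-05). FARS2 V239V, a synonymous site of the mitochondrial phenylalanyl enzyme, was at 8.00% to 40.9% against 0% to 11.5% (14.5 ± 8.58 points, limma adjusted p = 0.000155). It was called in only 1 of the 22 deaminase libraries, the one at 40.9%, wild-type MCP-ADAR2 DD-NES with guide. A WARS 3′ UTR site at chr14:100334648 was 8.11 ± 4.76 points higher, a NARS 3′ UTR site at chr18:57601481 was 8.43 ± 4.92 higher, and KARS T388A 8.09 ± 4.93 higher. WARS held 9 of the 56 sites higher with ADAR2, the highest count of any member, among its 142 listed sites. A gene with more listed sites has more that can be called, but the counts did not simply follow that number. CARS held 7 of 129, AARS 7 of 193, EPRS 6 of 138, QARS 5 of 87 and AARS2 2 of 32. YARS held 1 of 251 and IARS 0 of 276.

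**Figure D4:**
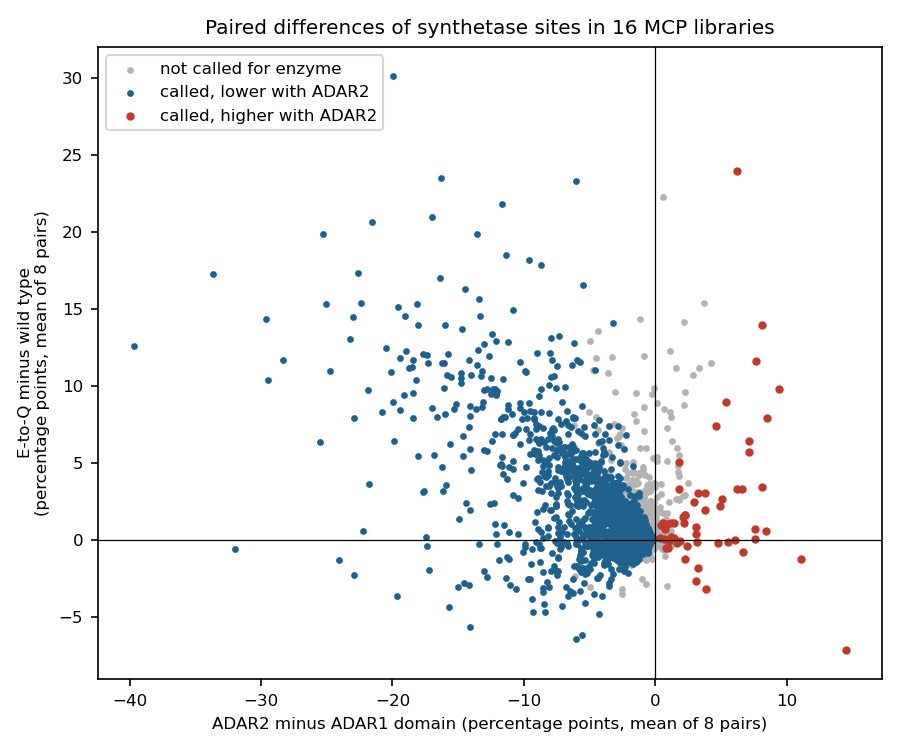
Each point is a synthetase site: mean paired difference in share between ADAR2 and ADAR1 fusions (x axis) and between E-to-Q and wild-type fusions (y axis), in percentage points over 8 pairs each, coloured by the limma call for the enzyme. Most called sites lie left of 0, down to YARS K119K at -39.7 points, and the 56 sites called higher with ADAR2 reach 14.5 points at FARS2 V239V.

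The guide moved no synthetase site past the threshold in the MCP libraries, in a fit that can miss small changes. In simulated data of 20000 sites, with 50 changed at each size, it recovered 18% of guide changes of 0.1 (arcsine square root of the share). For changes of 0.2 it recovered 74%, and it made 8 false calls. P-values there were adjusted over 20000 sites and not over 382978, so these percentages do not give the power of the real fit. It also takes a single guide effect for all constructs. In the limma fit 0 sites were higher and 0 lower with MS2 adRNA, against 0.000783% and 0% of all sites. At an unadjusted p under 0.05, 74 of the 2880 were higher and 18 lower, against 8465 and 3201 of all 382978 sites. Called sites rose with the guide in 6 of 6 pairs of fusions other than the exported ADAR1 ones, by 1.33 to 2.69 times, and fell in both MCP-ADAR1 DD-NES pairs, from 1037 to 924 in the wild type and from 1722 to 1538 in E1008Q. Calls over all sites moved the same way in each of these pairs, by 1.21 to 2.13 times upward in the 6 and to ratios of 0.871 and 0.863 in the exported ADAR1 pairs.

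The full-length enzyme left its own pattern on a few sites. VARS P10P averaged 60.1% over the 4 full-length libraries (50.7% to 68.4%) and 14.2% over the 8 MCP-ADAR2 libraries (6.20% to 21.4%). AARS2 K38R averaged 41.9% (32.6% to 50%) against 3.93% (1.56% to 8.82%), and the adjacent AARS2 K38E 34.8% (19.1% to 50%) against 1.76% (0% to 3.33%). In the Cas13b libraries these AARS2 adenosines were at 6.25% to 11.1%. At none of these 3 sites did the full-length and MCP-ADAR2 ranges overlap, and at AARS2 K38R the ADAR1 fusions reached no more than 8.57%.

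Other sites were lower with full-length ADAR2. The WARS 5′ UTR site averaged 0.699% (0% to 1.90%) against 21.1% in the MCP-ADAR2 libraries (3.68% to 35.6%). An EARS2 3′ UTR site at chr16:23523537 read 0% in all 4 full-length libraries and 5.56% to 28.3% in the MCP-ADAR2 libraries. This EARS2 site was called in 5 of the 22 deaminase libraries. Among the MCP-ADAR2 libraries it was called only in the wild type with NES and guide. The synonymous AARS2 V376V averaged 5.08% (3.57% to 7.32%) against 20.5% (8.62% to 35.7%), at a position that also lies in exons of TMEM151B and AL353588.1 on the other strand. Over all members the median share was 0.37% in the full-length and 0.40% in the MCP-ADAR2 libraries. The same medians over all listed sites were not computed. The sites named for full-length ADAR2 were chosen for their difference, so no test is given.

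Adding GluR2 adRNA to full-length ADAR2 went with more calls, and adding gRNA to Cas13b with fewer. Members higher with guide made up 72.6% of the 2880 in the full-length pairs and 18.9% in the Cas13b pair. The same percentages over all listed sites were not computed. Calls over all sites moved the same ways, to ratios of 3.22 and 4.87 with full-length ADAR2 and 0.438 with Cas13b. The largest full-length differences were both in PARS2: T326A went from 0% to 33.3% in the wild type and from 16.7% to 75.0% in E488Q, and the synonymous L154L from 9.52% to 22.2% and from 7.14% to 66.7%. The largest Cas13b differences were both in exon 2 of FARS2, where N65S fell from 39.4% to 10.0% and Y58C from 33.3% to 6.67%. PARS2 and FARS2 are members with few listed sites, 10 and 12. Most shares at these 4 sites did not pass the call rule. Of the 22 deaminase libraries, T326A was called in 1, L154L in 2, N65S in 4 and Y58C in 6.

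Class I signature motifs were hit in several enzymes, mostly at low shares. A search of the 19 class I proteins, as translated from the transcripts, for H, any residue, G and H or N found the HIGH motif in 17 genes, and a search for K, then M, F, L, I or V, then S, K and S, T, R or G found KMSKS in 12. These patterns also match by chance, and CARS and CARS2 held extra HIGH matches. The KMSKS matches held 16 listed sites, 15 of them missense, in 8 genes, and the HIGH matches 3 in 3 genes.

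EARS2 K287R, in the KLSKR form of the motif, stood out with its mean rise of 24.8 points. The next by mean rise were CARS K409R (4.76 ± 4.94 points, highest share 16.0%), LARS2 K639R (4.23 ± 4.37, highest 16.9%) and CARS K406R (3.87 ± 4.10, highest 12.7%). The further motif sites given here, and the start and stop codons other than that of YARS, were picked after their values were seen. LARS K716R and K716E, both adenosines of 1 codon, reached 19.6% and 18.2%. In HIGH motifs CARS2 H90R reached 11.5% and IARS Y56C 6.04%.

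At the stop codon of YARS a G would give a tryptophan codon; translation was not measured. The share of G ran from 0% to 41.9%, with a median of 10.5% and a mean rise of 13.4 ± 12.6 points, and it was called in 17 libraries. It was highest with MCP-ADAR1 DD (E1008Q)-NES (38.4% without and 41.9% with guide), at 36% with Cas13b without gRNA, and at 0% with wild-type full-length ADAR2 with or without guide. The next in-frame stop of the transcript lies 11 codons further on. The stop codons of IARS and WARS reached 1.56% and 4.91%, with 12 and 7 codons to the next stop. Listed sites in the stop codons of RARS and NARS give another stop codon. The start codon of KARS, which would read valine, was at 19.0% with full-length ADAR2 E488Q with guide and at most 3.67% in any other deaminase library. Listed start codon sites numbered 1 of 2875 members (0.0348%, against 0.0670% of all), and lost stops 3 (0.104%, against 0.222%).

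Summed over its listed missense sites, the rise gives the expected number of edited missense adenosines per message of a gene, at those sites. With the exported E1008Q fusion of ADAR1, without guide, this came to 10.7 for IARS, 8.04 for AARS and 7.95 for CARS, and VARS reached 9.38 in the same fusion with guide. Of the 35 genes with a missense site 26 had their highest sum in that library without guide, 3 with guide and 1 in MCP-ADAR1 DD (E1008Q)-NLS without guide. The other 5, all mitochondrial (AARS2, MARS2, PARS2, VARS2 and YARS2), were highest with full-length ADAR2 E488Q with guide, with VARS2 at 6.43 and AARS2 at 3.31. MARS2 and PARS2 held only 5 and 4 listed missense sites. Over all listed sites, too, exported ADAR1 E1008Q without guide had the highest percentage called, 59.2%, and the highest mean share, 11.4%. In wild-type full-length ADAR2 without guide AARS2 had the highest sum of the 36 genes, 1.08, close to its own median over the 22 libraries (1.06). VARS was at 0.587, VARS2 at 0.508 and IARS at 0.0472 there. A longer list of sites makes a larger sum, and whether changes fall on the same molecule is not known from these tables.

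**Figure D5:**
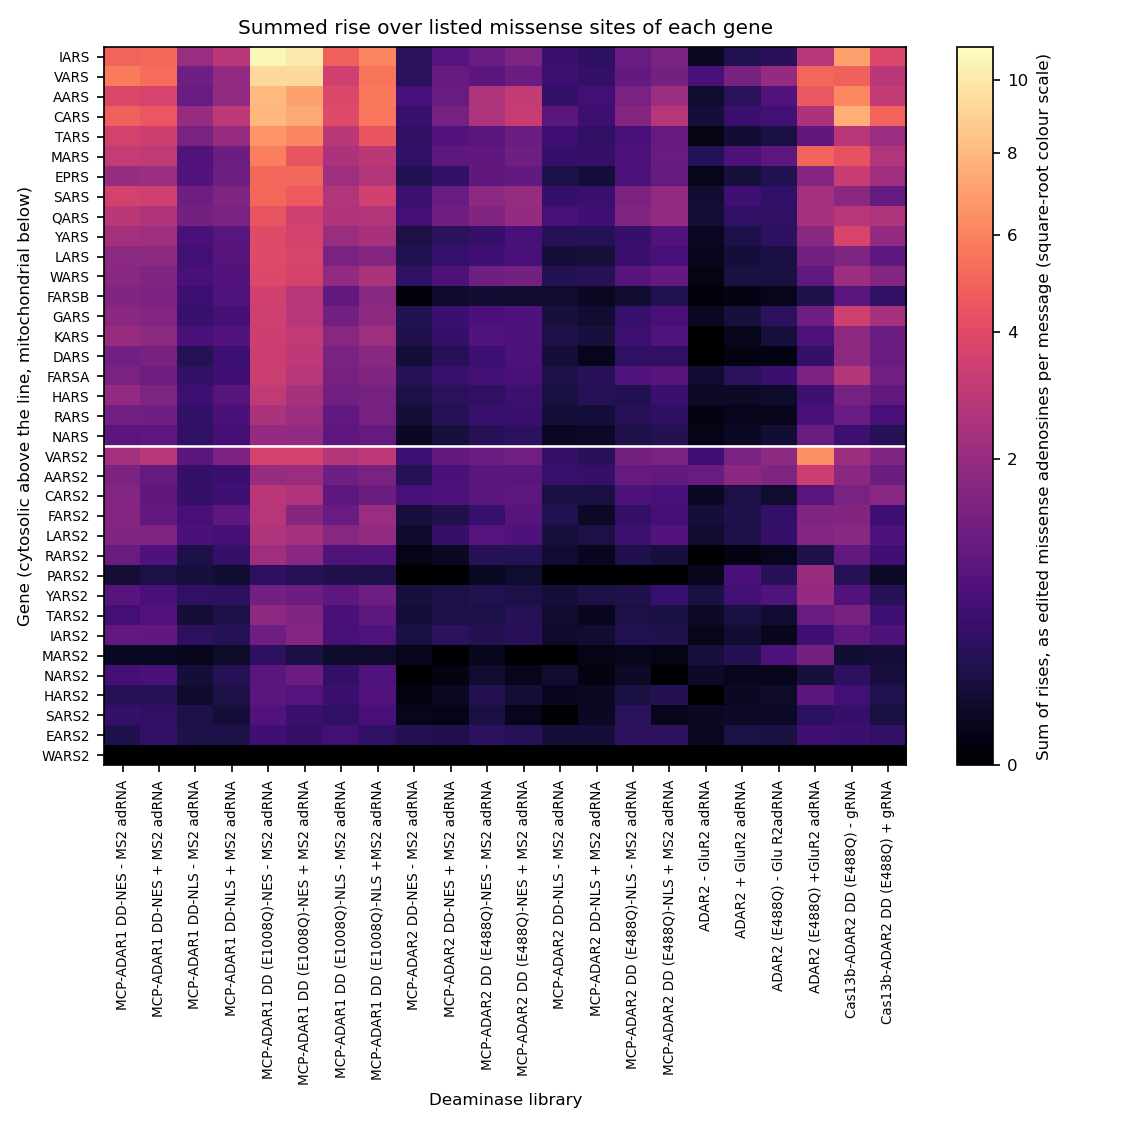
Sum of rises over the listed missense sites of each of the 36 genes (rows, cytosolic above the white line) in each deaminase library (columns), as edited missense adenosines per message on a square-root colour scale. IARS, VARS, AARS and CARS are brightest in the MCP-ADAR1 DD (E1008Q)-NES columns, VARS2 in the full-length ADAR2 E488Q column with guide, and WARS2 has no missense site.

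Genes that work with the synthetases were counted in the same way. A list of 12 (the scaffold proteins AIMP1, AIMP2 and EEF1E1, the mitochondrial amidotransferase subunits QRSL1, GATB and GATC, the formyltransferase MTFMT, PSTK and SEPSECS of selenocysteine synthesis, and the proofreading factors AARSD1, DTD1 and DTD2) held 239 sites, of which 238 were called in at least 1 library, and SEPSECS held none. With E-to-Q 74 were higher (31%, against 39.7% of all sites) and 3 lower (1.26%, against 0.72%). With NLS 7 were lower (2.93%, against 3.76%) and 0 higher, with ADAR2 144 lower (60.3%, against 66%) and 9 higher (3.77%, against 2.6%), and with the guide 0 in either direction. GATC had the most sites, 92, and reached 91.7%.

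A single synthetase site had a share of 5% or more without a deaminase. It lies in a coding exon of GARS, reads T on the strand of that gene, and stood at 29.1%, 29.5% and 31.4% in untransfected runs 2, 3 and 4. In the deaminase libraries it ran from 21.9% to 36.7% around a median of 32.4% and was called in 0 of 22. It was at 32.9% with GFP and at 14.5% to 16.9% with the 3 guides alone. Its values in deaminase libraries overlapped those of the untransfected runs.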

How the data were processed

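Poly(A) RNA of HEK 293T cells was sequenced, with STAR 2.6.0c, bcl2fastq 2.18.0.12, SAMtools and build GRCh38.p12 among the tools of the submitters' processing notes. The authors deposited 2 tables, which hold, per the file headers and values, 1 fraction per site and library (edited reads over all reads there) and 1 adjusted p-value. Not given in the sources used here were the test behind the p-values, the site selection and the read depth. In the table of fractions the first headers are displaced: positions stand under the name of untransfected run 1, and 1 column of fractions stands under a chromosome header. That column was not used, so run 1 was not analysed. Members and lists were chosen with earlier results of these data known.

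Sites were placed in exons of GENCODE release 29, and codons and neighbouring bases were read from its transcripts (Python 3.11.15, pandas 2.3.3). Limma 3.58.1 in R 4.3.3 was run on arcsine square roots of the fractions of all 382978 sites in the 16 MCP libraries, with 4 main effects, an intensity trend and 11 residual degrees of freedom. The scripts were tested on simulated data. These p-values measure the spread between constructs, which is not independent replication. Named sites were the 10 with the largest mean rise, those called in all 22 libraries, the 5 per factor and direction with the largest paired difference past 0.05 and 1 sign in 8 of 8 pairs, the 3 per direction for full-length against MCP-ADAR2, the 2 largest guide differences in the full-length and Cas13b pairs, sites at 5% or more in untransfected cells, and the 5 called start, stop or motif sites with the largest mean rise. Alternatives were other call thresholds, scales, filters, an interaction term, sites in exons of 1 gene, each library or untransfected run left out, and, chosen after seeing the data, coding sites alone.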

Additional observations from a re-analysis of the deposited data

Results flagged for a closer look

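The guide moved the number of called synthetase sites in opposite directions in different constructs. With full-length ADAR2 it went up in both pairs, by a ratio of 6.5 for the wild type and 8.78 for E488Q, and with the Cas13b fusion it went down, to a ratio of 0.484. In the MCP-ADAR1 fusions it went down in both exported pairs (ratios of 0.891 for the wild type and 0.893 for E1008Q) and up in both nuclear pairs (1.84 and 1.34). Over all sites the ratios went the same ways: 3.22 and 4.87 with full-length ADAR2, 0.438 with Cas13b, 0.871 and 0.863 in the exported and 1.39 and 1.23 in the nuclear ADAR1 pairs. These differences between constructs were not tested, since each condition is 1 library.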

How the results depend on the processing

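Each fit was repeated without each of the 16 MCP libraries. The count of synthetase sites past the threshold ran from 744 to 1035 for E-to-Q (943 with all), from 1890 to 2064 for ADAR2 (2046) and from 3 to 137 for NLS (84), and stayed at 0 for the guide. The NLS count moved by over 1.5 times without MCP-ADAR1 DD-NES (3 without the library lacking guide, 22 without that with it), MCP-ADAR1 DD-NLS (10 and 8), E1008Q-NES (8 and 23), E1008Q-NLS (7 and 14), MCP-ADAR2 DD-NES with guide (21), MCP-ADAR2 DD-NLS (137 and 53) and E488Q-NLS without guide (55). It rose to 155 with an interaction of enzyme and variant. Among sites with a mean share of at least 5%, 259 were called for E-to-Q and 314 for ADAR2, since that filter leaves 374 members.

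The call for NLS was lost for CARS T201A without MCP-ADAR1 DD-NES, DD-NLS or E1008Q-NLS, each without guide. It was lost for GARS K632R without any of these, E1008Q-NES without guide or DD-NLS with guide. SARS T91A lost it on the log2 scale and without any ADAR1 library but E1008Q-NES with guide, or without MCP-ADAR2 DD-NES with guide. The TARS2 site lost it without any ADAR1 library, either wild-type ADAR2 library with guide or either E488Q-NLS library. The named E-to-Q and ADAR2 sites kept their calls under every alternative that tested them.

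The median number of called synthetase sites per deaminase library was 265.5, and 171.5 where a rise of at least 5 points was required. It stayed at 265.5 without each untransfected run. No paired analysis was possible because the labels give each condition only 1 replicate number; the pairs in the report match constructs that differ in 1 factor, not replicates. The read depth, which limits the precision of every share, is unknown.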
